A study of Mus musculus with 12 samples.

Results

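The endothelial cell markers of liver described here are 10 genes of the 12393 measured. Pecam1, Cdh5, Kdr, Tek, Tie1 and Eng were taken as markers of endothelium in general. Stab2, Lyve1, Clec4g and Dnase1l3 were taken as markers of the endothelial cells that line the liver sinusoids. They were chosen by name, through the gene symbols that the platform annotation gives to probe sets, and with earlier results of these data known. Shares of them called are therefore descriptions. A probe set is a group of short oligonucleotides on the array that reads 1 transcript. The 10 genes held 15 probe sets, 5 genes having 2 each, and where a gene had several, the one with the highest mean signal on the 12 arrays stood for it.

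Liver RNA came from male C57BL/6 mice aged 12 weeks, with 1 Affymetrix mouse array per liver and 4 groups of 3. WT were wild type mice on a normal diet, and WT_RA were wild type mice fed all-trans retinoic acid (RA, the acid form of vitamin A that activates nuclear receptors) at 150 mg per kg of diet for 7 days. KO mice lacked, in hepatocytes, the DNA binding domain of RXRα (retinoid X receptor alpha), and KO_RA were such mice on the RA diet for the same 7 days. In KO mice the floxed exon of Rxra was removed by a Cre recombinase under the albumin promoter, which is active in hepatocytes, and a truncated protein with the ligand binding domain remained. Endothelial cells of KO mice were therefore not the targeted cells. All values are log2 signals after robust multi-array averaging (RMA), which corrects background and gives the arrays 1 common distribution, so a difference of 1 is a doubling.

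Liver sinusoids are capillaries with open pores and little basement membrane. Their endothelial cells clear waste molecules and immune complexes from blood through scavenger receptors such as stabilin-2 (Stab2), whereas PECAM-1, VE-cadherin (Cdh5), the VEGF receptor VEGFR2 (Kdr), the angiopoietin receptor TIE2 (Tek), its relative TIE1 (Tie1) and the TGF-β and BMP co-receptor endoglin (Eng) serve in vessels of most organs. In whole liver RNA, fewer endothelial cells and less RNA per endothelial cell cannot be told apart. RNA of the same genes from other cell types, macrophages among them, cannot be separated from endothelial RNA either.

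Promoter sequences from RefSeq (GRCm38.p6, 250 bases before to 50 after the start of transcription) were held for 6 of the 10 genes, namely Kdr, Tek, Tie1, Eng, Stab2 and Clec4g. Those of Pecam1, Cdh5, Lyve1 and Dnase1l3 were not used here. The promoter of Tek is shown because Tek fell with RA in KO mice. Its difference with RA in wild type mice did not pass (-0.22, adjusted p = 0.664 by limma). Stab2 and Clec4g are the sinusoidal members that could be shown beside it. Capitals mark GATA, the core letters bound by GATA factors such as GATA4 of sinusoidal endothelium, and AGGTCA, the hexamer bound by retinoid receptors, each searched on both strands (as TATC and TGACCT on the other).
Tek, chr4:94739039-94739338, plus strand: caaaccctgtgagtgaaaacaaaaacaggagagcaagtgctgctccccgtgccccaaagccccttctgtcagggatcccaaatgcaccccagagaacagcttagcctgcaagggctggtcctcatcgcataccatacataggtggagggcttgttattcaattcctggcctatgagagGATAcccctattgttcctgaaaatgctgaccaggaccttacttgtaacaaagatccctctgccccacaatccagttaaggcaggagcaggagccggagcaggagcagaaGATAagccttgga
Stab2, chr10:87007893-87008192, minus strand: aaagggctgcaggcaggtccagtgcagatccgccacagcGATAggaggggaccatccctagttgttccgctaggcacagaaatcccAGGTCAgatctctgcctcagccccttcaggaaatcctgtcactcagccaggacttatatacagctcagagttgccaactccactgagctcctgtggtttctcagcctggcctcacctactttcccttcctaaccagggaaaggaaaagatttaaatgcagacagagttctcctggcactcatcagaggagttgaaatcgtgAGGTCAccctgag
Clec4g, chr8:3720602-3720901, minus strand: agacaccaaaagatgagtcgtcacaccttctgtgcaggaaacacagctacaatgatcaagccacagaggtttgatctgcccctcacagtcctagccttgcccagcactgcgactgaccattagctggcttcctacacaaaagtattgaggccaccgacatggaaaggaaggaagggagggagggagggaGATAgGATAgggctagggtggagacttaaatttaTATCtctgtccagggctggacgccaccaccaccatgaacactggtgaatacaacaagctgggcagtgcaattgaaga
The Stab2 promoter held AGGTCA at 2 places, starting 164 bases before and 37 bases after the start of transcription, and 1.81% of 32817 RefSeq promoters of the same length held it at 2 or more. Tek and Clec4g had 0 matches to it in these windows, and 16.3% of all promoters had at least 1. GATA stood at 2 places in the Tek window, 1 in the Stab2 window and 3 in the Clec4g window, and 57.9% of all promoters held it. A match is a description of letters only.

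Arrays were alike in their distribution, with medians between 6.26 and 6.35, and 0 pairs held identical values. The albumin signal (Alb) averaged between 13.88 and 14.01 in the 4 groups. Cyp26a1, the RA-degrading enzyme and a standard RA target, rose by 4.51 with RA in wild type mice and by 2.78 in KO mice. The Rxra probe set did not separate the genotypes on the normal diet (KO minus WT -0.03, adjusted p = 0.949 by limma), and where it lies relative to the deleted exon was not determined. WT_RA replicate 3 and KO replicate 1 stood apart: their signal for the 3′ actin control was 9.40 and 9.12, against 12.1 to 12.9 on the other 10 arrays. The calls that were lost without both are therefore also given.

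By position among its own array's probe sets, the signal of Pecam1 and of Lyve1 lay below the array median on all 12 arrays, and Pecam1 lay below the lower quartile on 3 of them. Group means of Pecam1 were between 4.99 and 5.26 and those of Lyve1, a hyaluronan receptor, between 5.45 and 5.60. At such dim signals a difference in these 2 genes may not be detectable on this array. The other 8 genes had group means between 5.59 and 9.44. Among them, Cdh5 and Tie1 lay below the array median on 10 of 12 arrays, and Tek on 5. The same limit may therefore reach Cdh5 and Tie1. Levels are not compared between genes, since each probe set has its own brightness.

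**Figure D1:**
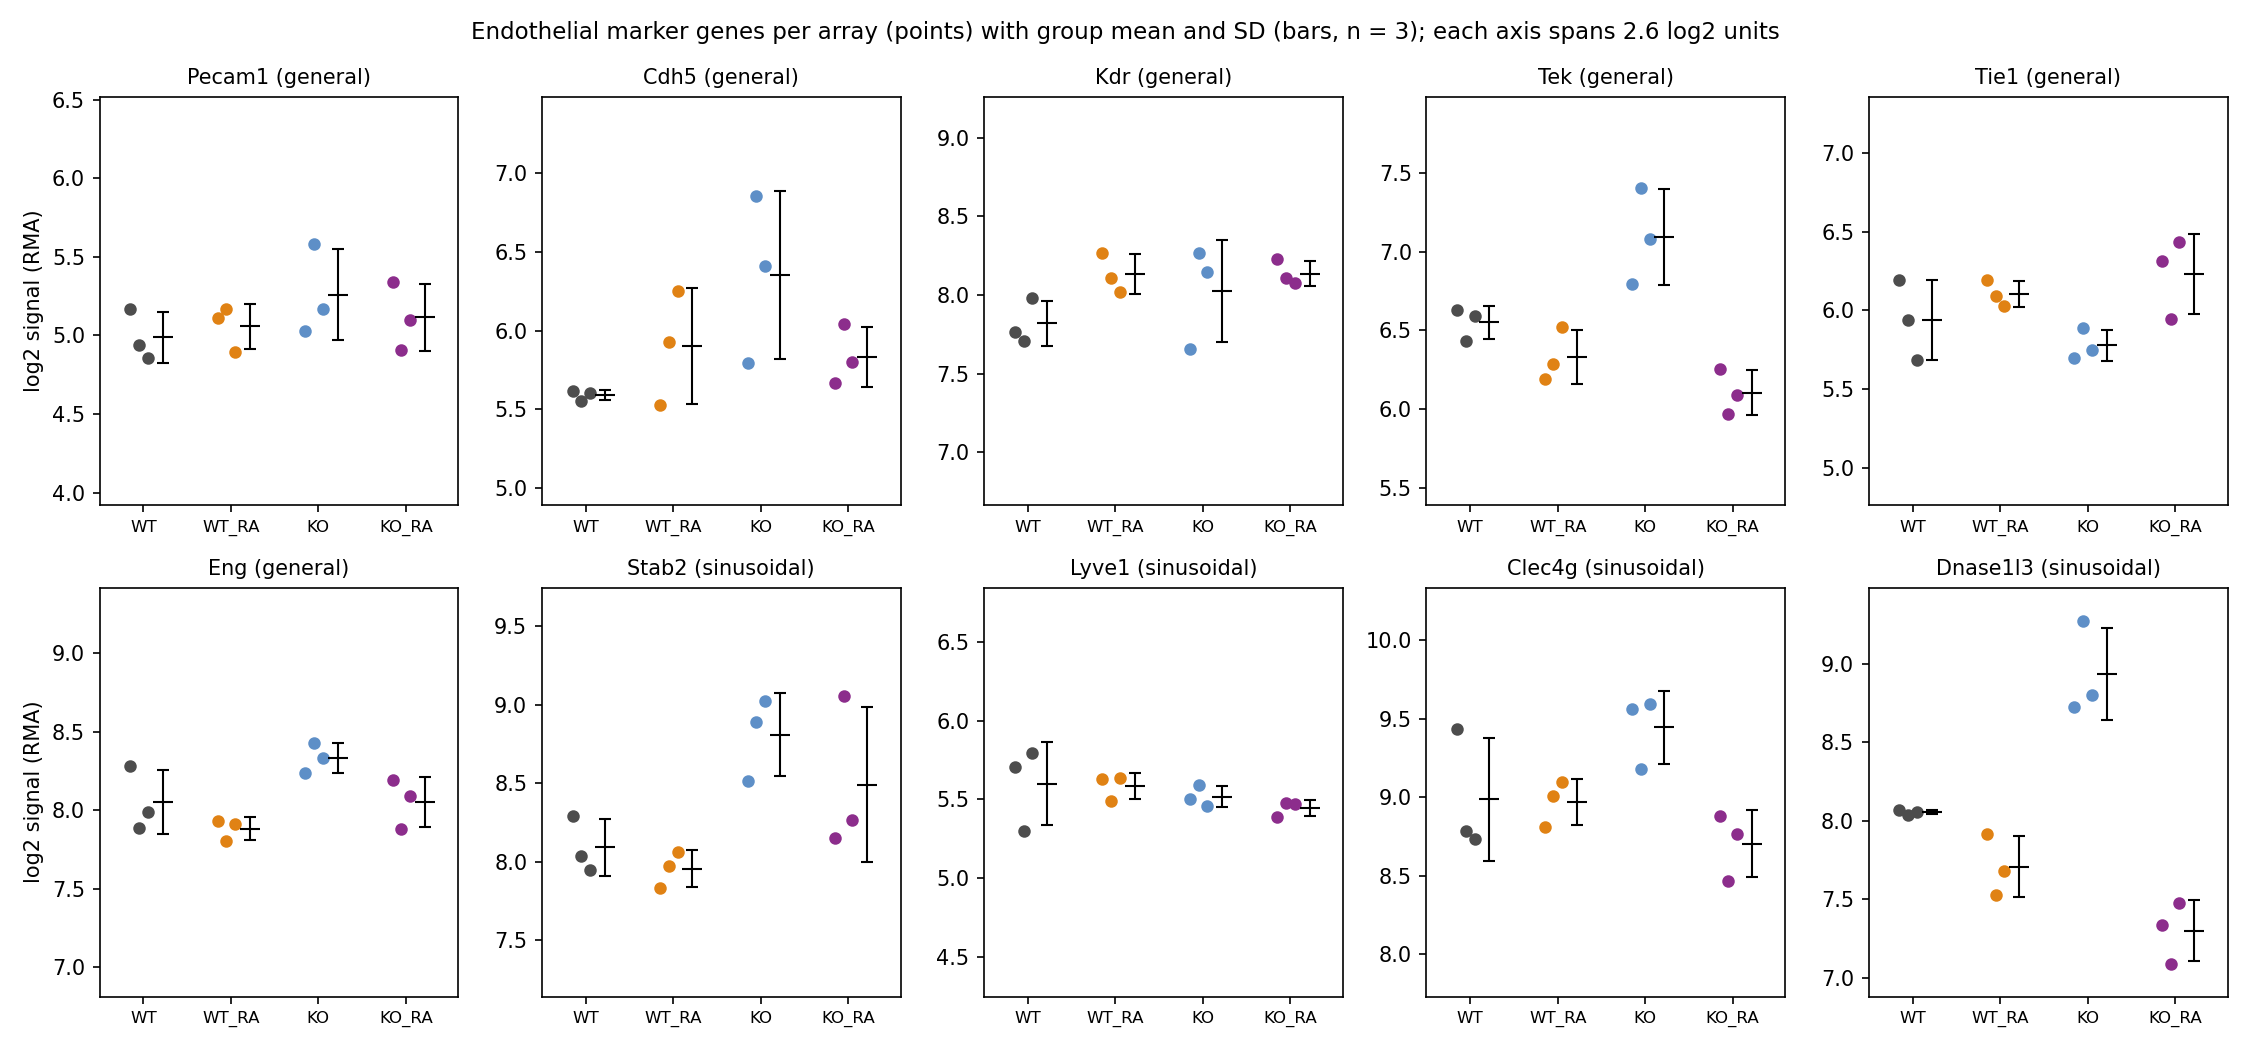
Log2 RMA signal of the 10 endothelial marker genes (vertical axes, each 2.6 units tall) in the 4 groups (horizontal axes), with 1 point per array and bars for the mean and SD of 3 arrays. Dnase1l3 and Tek are highest on the 3 KO arrays. Dnase1l3 is lowest on the 3 KO_RA arrays, whereas the KO_RA and WT_RA points of Tek overlap.

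Dnase1l3, a secreted nuclease that digests DNA in chromatin, varied most between groups. Its signals were 8.07, 8.04 and 8.06 on the WT arrays and 7.91, 7.53 and 7.68 on the WT_RA arrays. They were 8.73, 9.27 and 8.80 in KO and 7.34, 7.09 and 7.48 in KO_RA. In decreasing order the groups stood as KO (8.93 ± 0.30, SD, n = 3), WT (8.06 ± 0.01), WT_RA (7.71 ± 0.19) and KO_RA (7.30 ± 0.19), and no 2 groups overlapped.

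Tek signals were 6.63, 6.43 and 6.59 in WT, 6.19, 6.29 and 6.52 in WT_RA, 6.79, 7.41 and 7.08 in KO, and 6.26, 5.97 and 6.09 in KO_RA. The order of the groups was that of Dnase1l3, KO (7.09 ± 0.31) first and KO_RA (6.10 ± 0.14) last. WT (6.55 ± 0.10) and WT_RA (6.33 ± 0.17) overlapped each other, and WT_RA overlapped KO_RA.

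For Stab2 the signals were 8.29, 8.03 and 7.95 in WT, 7.83, 7.98 and 8.06 in WT_RA, 8.51, 8.89 and 9.02 in KO, and 8.15, 9.05 and 8.27 in KO_RA. Both KO groups had the higher means, and KO_RA replicate 2 reached the KO level while the other KO_RA arrays lay within the WT range. For Clec4g, a C-type lectin of sinusoidal cells, they were 9.44, 8.78 and 8.74 in WT, 8.81 to 9.09 in WT_RA, 9.56, 9.18 and 9.59 in KO, and 8.88, 8.47 and 8.77 in KO_RA. Every KO_RA array was below every KO array, and WT replicate 1 was within the KO range.

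Cdh5 spread widely within groups, from 5.79 to 6.85 in KO and from 5.52 to 6.25 in WT_RA, against 5.56 to 5.62 in WT. The range in KO_RA was 5.66 to 6.04, within that of WT_RA. Eng lay between 7.89 and 8.28 in WT, 7.80 and 7.93 in WT_RA, 8.24 and 8.43 in KO, and 7.88 and 8.19 in KO_RA. Kdr lay between 7.71 and 7.98 in WT, 8.02 and 8.27 in WT_RA, 7.66 and 8.27 in KO, and 8.07 and 8.23 in KO_RA. Tie1 was highest in KO_RA (5.95 to 6.44) and lowest in KO (5.70 to 5.89), with WT (5.68 to 6.19) and WT_RA (6.03 to 6.19) between. In this gene KO and KO_RA stood in the reverse of their order for Tek, the receptor it is related to.

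To ask what loss of hepatocyte RXRα did to endothelial genes on the normal diet, KO was compared with WT. Dnase1l3 rose 1.84-fold in KO, by 0.88 ± 0.15 (SE) on the log2 scale (adjusted p = 0.0179, limma with Benjamini-Hochberg adjustment over 12393 genes). It was the 1 member called of 10, beside 1.32% of all genes called. In all, 8 of 10 members had a higher mean in KO. Arrays of Cdh5, Tek, Stab2 and Dnase1l3 did not overlap between the groups, all higher in KO, which is 4 of 10 members beside 20.1% of all genes without overlap in either direction. Differences that did not pass were 0.76 ± 0.23 for Cdh5 (adjusted p = 0.151), 0.72 ± 0.21 for Stab2 (0.132), 0.54 ± 0.15 for Tek (0.105), 0.46 ± 0.19 for Clec4g (0.252) and 0.28 ± 0.12 for Eng (0.259). The median difference was 0.59 over the 4 sinusoidal members, 0.28 over the 6 general members and 0.02 over all genes.

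The Dnase1l3 call was lost without WT replicate 1 or WT replicate 2 (adjusted p up to 0.0700), and with only the KO and WT arrays in the fit (0.0570). Without WT_RA replicate 3 and KO replicate 1, Dnase1l3 differed by 0.98, and Cdh5 (1.04, adjusted p = 0.0101) and Tek (0.69, 0.0203) were called too.

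The question of what dietary RA did in mice without hepatocyte RXRα was addressed by KO_RA against KO. Dnase1l3 fell 3.10-fold, a log2 change of -1.63 ± 0.15 (adjusted p = 0.000879), and Tek fell 1.99-fold, a change of -0.99 ± 0.15 (adjusted p = 0.0184, both limma). These were 2 of 10 members called, beside 0.5% of all genes. Arrays of Dnase1l3, Tek, Clec4g and Eng did not overlap between the groups and were lower in KO_RA, and those of Tie1 were higher. That makes 5 of 10 members, beside 20.9% of all genes. Clec4g differed by -0.74 ± 0.19 (adjusted p = 0.103), Cdh5 by -0.52 ± 0.23 (0.351), Tie1 by 0.46 ± 0.14 (0.197) and Eng by -0.28 ± 0.12 (0.317), and none of these passed. The median was -0.53 over sinusoidal members, -0.21 over general members and -0.03 over all genes.

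The Dnase1l3 fall was called in all 12 fits that left out 1 array, with an adjusted p of at most 0.00863. The Tek call was lost without KO replicate 3 or KO_RA replicate 2 (up to 0.0732), and with only KO and KO_RA in the fit (0.0834). Without both arrays that stood apart the changes were -1.74 and -1.14, and both stayed called.

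In wild type mice, 0 of 10 members were called for RA (WT_RA against WT), beside 1.27% of all genes, by limma. Dnase1l3 alone had an unadjusted p under 0.05 (difference -0.35 ± 0.15, adjusted p = 0.388 by limma). Kdr was higher (0.31 ± 0.14, adjusted p = 0.435) and Dnase1l3 lower on every WT_RA array than on any WT array, which is 2 of 10 members without overlap beside 16.6% of all genes. The median difference was -0.08 over sinusoidal members, 0.12 over general members and -0.01 over all genes.

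Under RA the 2 genotypes (KO_RA against WT_RA) again differed in 0 of 10 members by limma, beside 3.95% of all genes called. Unadjusted p was under 0.05 for Stab2, higher in KO_RA by 0.53 ± 0.21 (adjusted p = 0.202), and for Dnase1l3, with a difference of -0.41 ± 0.15 (adjusted p = 0.169). Arrays of Stab2, Dnase1l3 and Lyve1 did not overlap, 3 of 10 members beside 25.6% of all genes. Medians were -0.20 over sinusoidal members, 0.03 over general members and 0.01 over all genes.

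**Figure D2:**
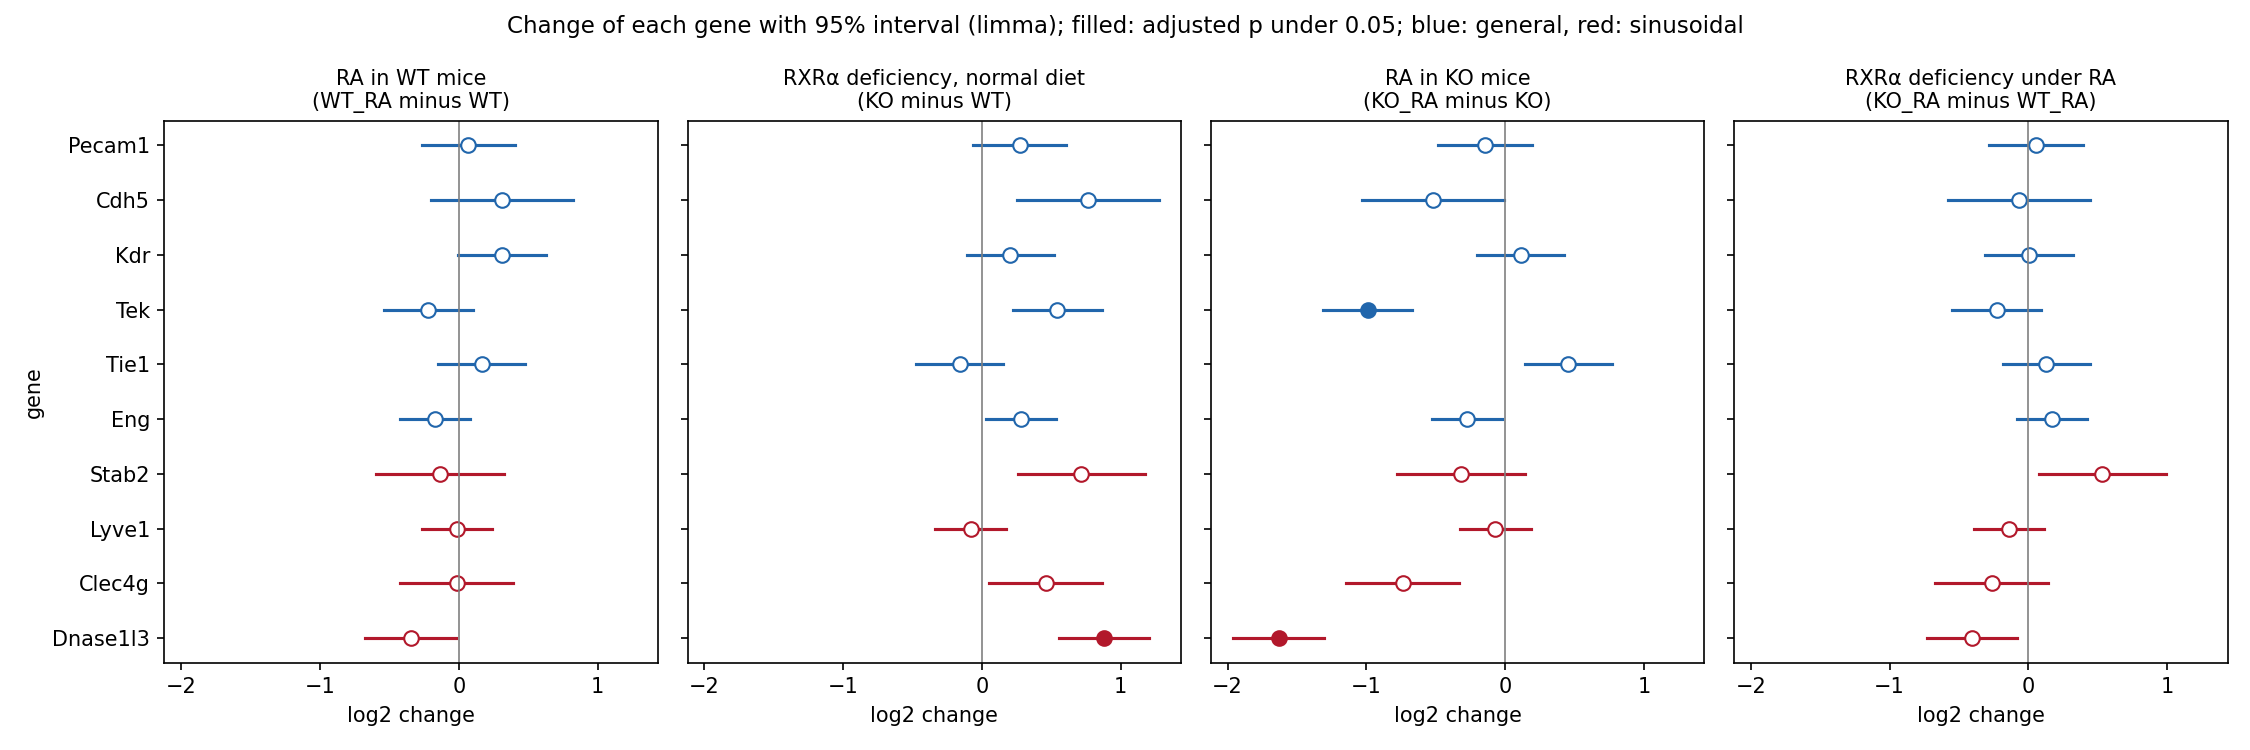
Log2 change (horizontal axis) of each of the 10 genes in the 4 comparisons, with 95% intervals from limma over 12 arrays and filled points where the adjusted p was under 0.05. Filled points are Dnase1l3 for KO minus WT (0.88), and Tek (-0.99) and Dnase1l3 (-1.63) for KO_RA minus KO.

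Whether the RA effect differed between genotypes was tested as the RA difference in KO mice minus that in wild type mice. For Dnase1l3 this was -1.29 ± 0.21 (adjusted p = 0.0631), for Cdh5 -0.83 ± 0.33 (0.366), for Tek -0.77 ± 0.21 (0.225) and for Clec4g -0.72 ± 0.26 (0.320). By limma 0 of 10 members were called, 4 had an unadjusted p under 0.05, and 0.00807% of all genes were called. All 4 sinusoidal and 5 of 6 general members had a negative value, with medians of -0.45 and -0.21 beside -0.02 over all genes. The comparisons share their KO, WT, KO_RA and WT_RA arrays, so their values are not independent of each other.

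Sinusoidal and general members were set side by side on each array as the mean deviation of the genes from their 12-array means. For the sinusoidal members this was 0.35, 0.51 and 0.49 on the KO arrays and -0.29, -0.20 and -0.23 on the KO_RA arrays. It was 0.15, -0.19 and -0.09 in WT and -0.18, -0.22 and -0.11 in WT_RA. The 3 KO arrays lay above the other 9. For the general members it was -0.08, 0.46 and 0.20 in KO, and all other arrays lay between -0.20 and 0.05. The sinusoidal value minus the general value was 0.26 ± 0.19 in KO, 0.08 ± 0.07 in WT, -0.13 ± 0.04 in WT_RA and -0.21 ± 0.14 in KO_RA (SD, n = 3). It was negative on all 6 arrays of RA-fed mice and positive on all 6 arrays of mice on the normal diet. This split by diet depended on Dnase1l3, the gene that varied most, and was not a trait of each sinusoidal gene. Stab2, for 1, had its highest signal (9.05) on KO_RA replicate 2. These values are descriptions without a test, since the lists were chosen with results of these arrays known.

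Members did not move as 1 block. Over the 12 arrays, Pearson r had a median of 0.42 over the 15 pairs of general members (-0.58 to 0.75), 0.23 over the 6 pairs of sinusoidal members (-0.20 to 0.70) and 0.25 over the 24 mixed pairs (-0.59 to 0.94). The highest value belonged to Tek and Dnase1l3, a general and a sinusoidal gene, and the lowest to Tie1 and Dnase1l3. These arrays share the 4 groups, so the values describe group differences as well as scatter.

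Further probe sets existed for 5 members. The further Dnase1l3 probe set was dim, below the array's lower quartile on 10 of 12 arrays, and its KO signals were 4.56, 6.30 and 5.61 against 3.99 to 4.60 on the other arrays. It differed by 1.24 ± 0.33 for KO minus WT (adjusted p = 0.126) and by -1.24 ± 0.33 for KO_RA minus KO (0.141), the directions of the brighter one, without passing. It differed by 0.02 ± 0.33 for KO_RA minus WT_RA against -0.41, and by -0.02 ± 0.33 for WT_RA minus WT against -0.35. The further Eng probe set differed by -0.65 ± 0.14 for KO_RA minus KO (0.0766) where the brighter one differed by -0.28. For Clec4g the further probe set differed by -0.16 ± 0.14 against -0.74, so its probe sets disagree in size. The further Cdh5 probe set differed by 0.06 ± 0.09 for KO minus WT against 0.76, and by -0.17 ± 0.09 for KO_RA minus KO against -0.52. The further Lyve1 probe set differed by -0.48 ± 0.40 for KO_RA minus KO against -0.07, and by -0.93 ± 0.40 for KO_RA minus WT_RA against -0.14 (adjusted p = 0.258).

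Kupffer cells are the macrophages that sit in the sinusoids. Over 14 measured markers of these cells and other macrophages the mean deviation was -0.78 to -0.59 in WT, -0.08 to 0.69 in WT_RA, -0.40 to 1.42 in KO and -0.09 to 0.06 in KO_RA. The median difference was 1.22 for KO minus WT (14 of 14 positive) and -0.53 for KO_RA minus KO (13 of 14 negative). In each, 0 of 14 were called, beside 1.32% and 0.5% of all genes. Before adjustment, limma p was under 0.05 for 14 of 14 in KO minus WT, beside 2017 of 12393 genes. It was so for 2 of 14 in KO_RA minus KO, beside 1740 of 12393. Arrays did not overlap for 9 of 14 and 1 of 14, beside 20.1% and 20.9% of all genes. On KO replicates 1, 2 and 3 the macrophage value was -0.40, 1.42 and 0.45, and the Dnase1l3 signals of 8.73, 9.27 and 8.80 stood in the same order. The mean deviation of the general members on the KO arrays (-0.08, 0.46 and 0.20) had that order too. All 3 KO arrays were above all WT arrays in both the macrophage value and Dnase1l3. WT_RA differed: its macrophage values were above those of all WT arrays. Its Dnase1l3 signals (7.53 to 7.91) were below those of all WT arrays (8.04 to 8.07). The lowest KO macrophage value (-0.40) and the highest WT_RA value (0.69) came from the arrays that stood apart. For RA in wild type mice the macrophage median was 1.03, with 2 of 14 called higher, the scavenger receptor Cd163 (1.49, adjusted p = 0.00299) and the endotoxin co-receptor Cd14 (1.12, 0.0452), while 0 endothelial members were called. Of all genes, 1.27% were called in that comparison. The Cd163 rise was called in all 12 fits without 1 array, and the Cd14 rise in 3 of 12 (adjusted p up to 0.167), those without WT_RA replicate 1, KO replicate 1 or KO_RA replicate 2. Between genotypes under RA, 1 of 14 was called, beside 3.95% of all genes. It was Cd163 (-0.79 for KO_RA minus WT_RA, adjusted p = 0.0381), and that call held in 6 of 12 such fits (up to 0.144). Without both arrays that stood apart, this Cd163 call and the Cd14 call were lost. The part of macrophages in the endothelial results was not tested.

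**Figure D3:**
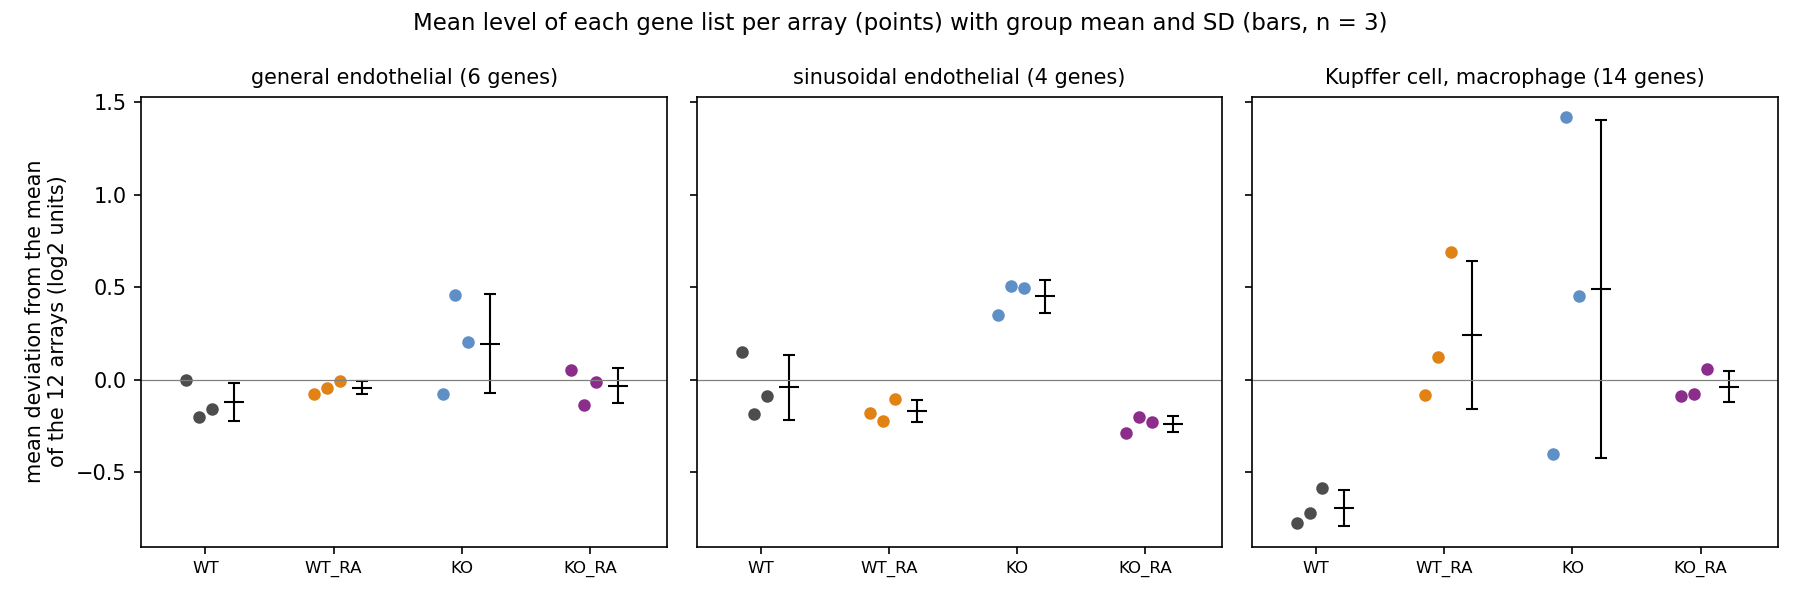
Mean deviation of a gene list from its 12-array mean in log2 units (vertical axis) in the 4 groups, with 1 point per array and bars for the mean and SD of 3 arrays. The sinusoidal value is highest in KO (0.35 to 0.51), and the macrophage value spans -0.40 to 1.42 within KO.

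Of the other cell types, 0 of 14 stellate cell and fibroblast markers, 0 of 13 leukocyte markers and 0 of 11 hepatocyte markers were called in any comparison. Between 0.00807% and 3.95% of all genes were called in the comparisons, so 0 is a common count for lists of this size. The stellate and fibroblast list had a median of 0.18 for KO minus WT and -0.09 for KO_RA minus KO. In that list the collagen gene Col3a1 differed by -1.70 ± 0.36 (adjusted p = 0.0609) and the matrix proteoglycan Lum by -1.12 ± 0.22 (0.0506) for KO_RA minus KO, and neither passed. Of 7 platelet and red cell genes, 1 was called, the red cell heme enzyme Alas2, which fell for KO_RA against KO (-3.68 ± 0.67, adjusted p = 0.0405), beside 0.5% of all genes called there. Its signals were 10.74, 10.57 and 10.69 in WT, 10.26, 6.72 and 9.51 in WT_RA, 10.69, 10.93 and 11.01 in KO, and 7.61, 6.38 and 7.60 in KO_RA. Its group means stood in the order of those of Dnase1l3 and Tek, but Alas2 was named for its fall from KO to KO_RA, which favours that order. The Alas2 call held in 3 of 12 fits without 1 array, those without 1 WT_RA array (otherwise adjusted p up to 0.146), and was lost without both arrays that stood apart (0.0561). The mean deviation of the 7 genes was 0.22 to 0.29 in KO, 0.10 to 0.24 in WT, -0.38 to 0.11 in WT_RA and -0.45 to -0.28 in KO_RA, while their median change for KO_RA against KO was -0.09. The part of these cells in the endothelial results was not tested.

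Other genes of endothelium were read from lists of sinusoidal, capillary and large vessel, lymphatic, signalling, transcription factor and angiocrine genes, 108 distinct genes in all. Not all are specific to endothelium, and in whole liver RNA the cells that made each transcript were not determined. For KO_RA against KO, 5 fell and 2 rose, 6.48% of them beside 0.5% of all genes. The lists were chosen with earlier results of these data known, so this share and the later ones are descriptions without a test. The 5 that fell were coagulation factor VIII (F8), which liver endothelium makes, with a log2 change of -1.30 ± 0.16 (adjusted p = 0.00740), the sinusoidal receptor Gpr182 (-0.90 ± 0.12, 0.00970), the endothelial lectin Clec14a (-0.88 ± 0.13, 0.0179), the ligand Bmp4 (-0.72 ± 0.12, 0.0252) and the inhibitory Fc receptor Fcgr2b (-0.46 ± 0.09, 0.0419). F8 signals were 6.88, 7.21 and 6.71 in KO and 5.39, 5.72 and 5.78 in KO_RA, with WT (6.12 to 6.37) and WT_RA (5.80 to 6.26) between them. Gpr182 signals were 7.71, 8.16 and 7.93 in KO and 7.20, 6.88 and 7.00 in KO_RA, again with WT (7.40 to 7.62) and WT_RA (7.24 to 7.28) between. Clec14a lay between 6.20 and 6.28 in KO and between 5.23 and 5.56 in KO_RA.

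The order of group means of F8, Gpr182, Clec14a and Bmp4 was that of Dnase1l3 and Tek, KO above WT above WT_RA above KO_RA. Fcgr2b did not share it, with 8.66 in KO_RA and 8.65 in WT_RA. These genes were named for their fall from KO to KO_RA, so KO above KO_RA followed from that choice. The choice also favours genes with KO first and KO_RA last. How many of all genes had this order was not counted. Col3a1 and Lum of the stellate and fibroblast list, named for the size of their change in the same comparison, had the same order. For KO minus WT, F8, Gpr182 and Clec14a differed by 0.70 (adjusted p = 0.0589), 0.41 (0.130) and 0.43 (0.134), which did not pass. The F8 fall was called in all 12 fits without 1 array, whereas the Fcgr2b call held only without KO replicate 1 (otherwise up to 0.146). The Gpr182 call was lost without KO replicate 3 (adjusted p = 0.0551), the Clec14a call without KO replicate 3 or KO_RA replicate 2 (up to 0.0722), and the Bmp4 call without any of 4 arrays, KO replicates 2 and 3 and KO_RA replicates 1 and 3 (up to 0.0881).

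Bmp2 and Bmp6, ligands that liver endothelium makes and that drive hepcidin in hepatocytes, rose with RA in both genotypes. Bmp2 signals were 7.13, 6.28 and 6.74 in WT, 7.83, 7.94 and 7.51 in WT_RA, 6.18, 6.31 and 6.29 in KO, and 7.79, 7.62 and 7.79 in KO_RA. Its rise was 1.05 ± 0.18 in wild type (adjusted p = 0.0181) and 1.47 ± 0.18 in KO mice (0.00740), without overlap in either. Bmp6 rose by 0.63 ± 0.11 (0.0181) and by 0.58 ± 0.11 (0.0405). It was dim, below the lower quartile of probe sets with 1 gene symbol on 3 of 12 arrays. The difference between the genotypes in the RA effect was 0.43 ± 0.25 for Bmp2 (adjusted p = 0.547) and -0.04 ± 0.15 for Bmp6 (0.943), and neither passed. The Bmp2 rise in KO mice was called without any 1 array, while in wild type mice it was lost without WT replicate 3 or WT_RA replicate 2 (up to 0.0698). The Bmp6 call was lost in wild type mice without WT replicate 2 or WT_RA replicate 3 (up to 0.0651), and in KO mice without WT replicate 2 or any 1 of the 6 KO and KO_RA arrays (up to 0.144).

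RA in wild type mice called 6 of the 108 genes, all higher, which is 5.56% beside 1.27% of all genes. Besides Bmp2 and Bmp6 these were Clec1b, a C-type lectin receptor (1.62 ± 0.29, adjusted p = 0.0206), thrombomodulin Thbd (1.25 ± 0.23, 0.0236), the fenestral diaphragm protein Plvap (0.82 ± 0.15, 0.0238) and the mannose receptor Mrc1 (0.75 ± 0.13, 0.0209). Mrc1 and Clec1b are also made by macrophages, of whose 14 markers 2 were called higher in the same comparison. Thbd was dim, with a WT mean of 4.75, and lay below the lower quartile of probe sets with 1 gene symbol on 4 of 12 arrays. Plvap signals were 6.87, 6.55 and 6.63 in WT and 7.62, 7.70 and 7.21 in WT_RA. In KO mice it differed by 0.63 ± 0.15 (adjusted p = 0.0922). Without WT replicate 2 or WT replicate 3 all 4 of these calls were lost. WT_RA replicate 3 had the same effect on Clec1b (up to 0.0875) and Mrc1 (up to 0.0782, lost also without WT replicate 1), as had WT_RA replicate 2 on Thbd (up to 0.0985) and WT_RA replicates 1 and 2 on Plvap (up to 0.0993).

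For KO against WT, 3 of the 108 genes were called, all higher, 2.78% beside 1.32% of all genes. They were Mrc1 (0.71 ± 0.13, adjusted p = 0.0281), the arterial connexin Gja4 (0.60 ± 0.13, 0.0456) and the semaphorin receptor Plxnc1 (0.51 ± 0.11, 0.0443) by limma. The Mrc1 call was lost without KO replicate 2 or any 1 WT array (up to 0.0928), Gja4 held only without WT_RA replicate 2 or 3 (otherwise up to 0.115), and Plxnc1 only without WT_RA replicate 2 or 3, KO replicate 3 or KO_RA replicate 2 (otherwise up to 0.143). Under RA the 1 gene called between genotypes was Cav1, the coat protein of caveolae, with signals of 5.43, 5.80 and 5.89 in WT_RA and 6.72, 7.58 and 7.19 in KO_RA. It was higher in KO_RA by 1.46 ± 0.22 (adjusted p = 0.00430), 0.926% of the genes beside 3.95% of all, and in all 12 fits without 1 array. On the normal diet Cav1 was higher in KO by 0.90 ± 0.22, without passing (0.0765).

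**Figure D4:**
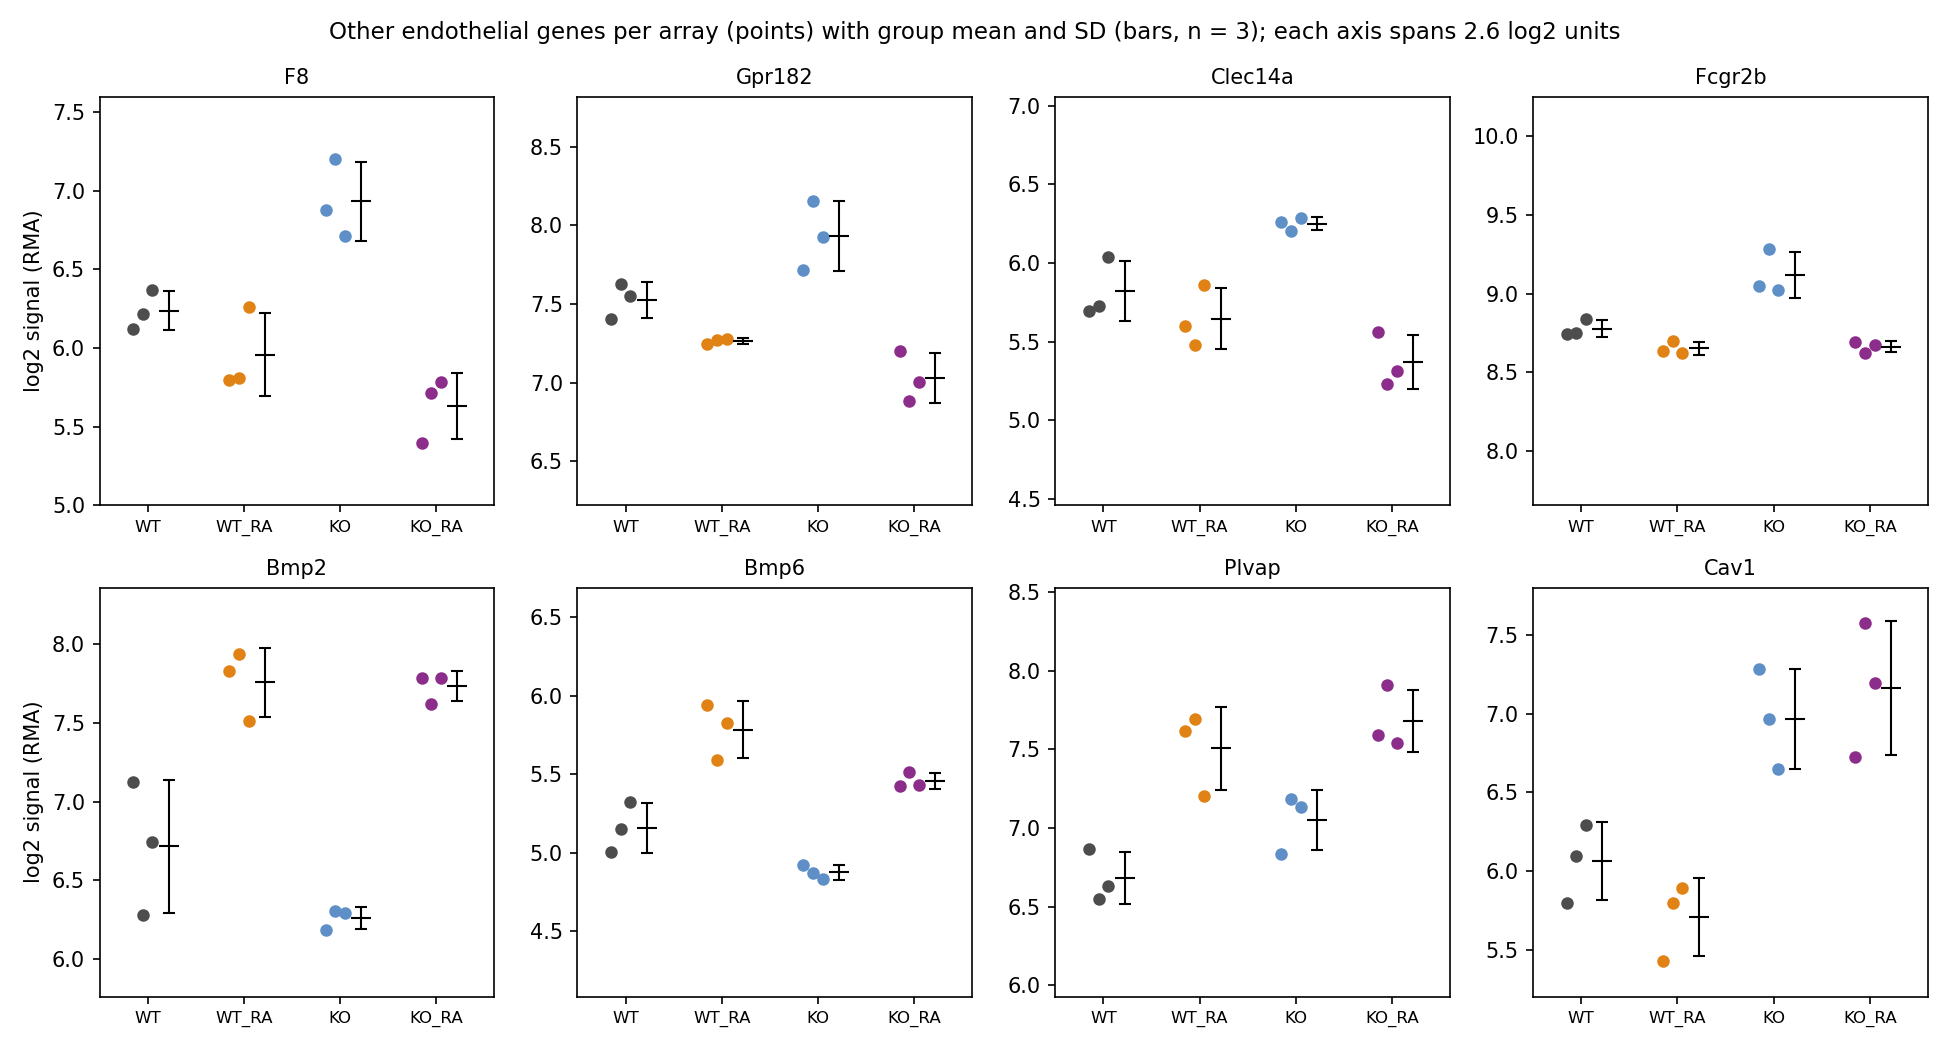
Log2 RMA signal of 8 other endothelial genes (vertical axes, each 2.6 units tall) in the 4 groups, with 1 point per array and bars for the mean and SD of 3 arrays. F8, Gpr182, Clec14a and Fcgr2b are highest in KO, Bmp2, Bmp6 and Plvap are higher with RA, and Cav1 is higher in both KO groups.

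By list, 3 of 18 other sinusoidal genes fell for KO_RA against KO (median -0.25), 1 of 25 capillary and large vessel genes (median -0.02), 0 of 5 lymphatic genes and 0 of 20 transcription factor and nitric oxide genes. Of all genes, 0.5% were called in this comparison, so 0 is a common count for lists of this size. Among 34 genes of the VEGF, angiopoietin, Notch and BMP pathways, Bmp2 and Bmp6 rose and Bmp4 fell. The ligands Angpt1 and Angpt2 of the TIE2 receptor differed by -0.05 (adjusted p = 0.858) and -0.03 (0.932), and the ligand Vegfa of VEGFR2 by 0.13 (0.790), so none passed beside the fall of Tek. Gata4, the sinusoidal transcription factor, differed by -0.11 (0.666).

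Among 6192 other genes with a mean at or above the median, the profiles over 12 arrays most like the mean of the sinusoidal members were those of Dpcd (r = 0.92), Fcgr2b (0.89), Tdrd7 (0.89) and Igfbp7 (0.88). C8b, Ltbp4 and F11 (0.88 each) and Serpinb6a (0.87) came next. Most like the mean of the general members were Cyba (0.94), Clic1 (0.94), Cd74 (0.93) and H2-Eb1 (0.93). Msn (0.92) and Gbp7, Itpk1 and H2-Ab1 (0.91 each) followed. Cyba is a subunit of the phagocyte oxidase, and Cd74 and H2-Eb1 serve antigen presentation by MHC class II.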

How the data were processed

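Liver RNA of 12 mice was hybridised to Affymetrix mouse genome arrays. The authors deposited 1 log2 value per probe set and array. The submitters' processing notes name RMA and Partek 6.11, whereas the methods of the study name another summary with a detection filter for its own analysis. Of 22690 probe sets, 64 were controls, 20380 had 1 gene symbol, 691 several and 1555 none, which left 12393 genes. No dim probe sets were removed. Sample titles gave the groups and replicate numbers and call the arrays biological replicates. A limma model (3.58.1, R 4.3.3) with a coefficient for each group was fitted over the 12 arrays and all genes, with two-sided tests and Benjamini-Hochberg adjustment, called at an adjusted p under 0.05. It was tested on simulated data. The number of arrays limits the precision. Named are all members, up to 4 called genes per list and comparison or the largest changes where none was called, the most alike profiles, and the checks Rxra and Cyp26a1. Angiopoietin, Vegfa and Gata4 values were named after they were seen, as ligands or regulators of members. Members and lists were chosen with earlier results of these data known. Alternatives were a replicate block, quantile normalization, mean of probe sets, dim genes left out, a variance trend, array weights, only the compared groups, and arrays left out.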

Additional observations from a re-analysis of the deposited data

Results flagged for a closer look

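Dnase1l3 was singled out because its genotype difference ran in opposite directions on the 2 diets without overlap of arrays: every KO array was above every WT array, and every KO_RA array was below every WT_RA array. The RA change in KO mice minus that in wild type mice was -1.29 (log2). The test of that difference by limma did not pass (adjusted p = 0.0631). The reversal was seen with the brighter probe set only. The further, dim one differed by 0.02 ± 0.33 for KO_RA minus WT_RA, where the brighter one differed by -0.41.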

How the results depend on the processing

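Replicate numbers did not pair the arrays (5 of 18 same-number pairs had r over 0.1, from -0.46 to 0.27). With the replicate block, 98 genes rather than 163 were called for KO against WT, and the members called were unchanged in every comparison: 1 for KO against WT (Dnase1l3, adjusted p = 0.0466), 2 for KO_RA against KO (0.00589 for Dnase1l3, 0.0364 for Tek) and 0 elsewhere.

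Array weights called 7 members for KO against WT, 4 for KO_RA against KO, 1 for RA in wild type and 3 for the difference between RA effects, while 14%, 2.44%, 8.63% and 1.99% of all genes (1734, 303, 1070 and 247) were called. They moved the sinusoidal median to 0.77 for KO against WT and to -0.68 for the difference between RA effects. With only the compared groups, 0 members were called for KO against WT (70 genes) and 1 for KO_RA against KO (21 genes), with fewer residual degrees of freedom. Without WT_RA replicate 3 and KO replicate 1, 3 members were called for KO against WT (266 genes), 2 for KO_RA against KO (110 genes), and the general median of the difference was -0.43. Leaving dim genes out, which drops Tek, left 1 member called for KO_RA against KO, with sinusoidal medians of -0.74 there and -0.72 for the difference. With the mean of probe sets the sinusoidal median for KO_RA against KO was -0.38. A further quantile normalization called 94 genes for KO_RA against KO and the same members. Among the other endothelial genes, calls held with only the compared groups for Clec1b, F8, Clec14a, Cav1 and Bmp2 in KO mice, and the other 12 were lost. Without both arrays that stood apart, Mrc1 and Bmp6 lost their calls for RA in wild type, Plxnc1 and Gja4 for KO against WT, and Bmp6 for KO_RA against KO. The replicate block ended those of Mrc1, Plxnc1 and Gja4 for KO against WT, and of Fcgr2b and Bmp6 for KO_RA against KO. Plxnc1 also lost its call with the mean of probe sets and with a variance trend, Gja4 with quantile normalization and Fcgr2b with a variance trend.

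Leaving out 1 array at a time gave 0 to 3 members called for KO against WT, 1 to 2 for KO_RA against KO and 0 to 1 for the difference, with sinusoidal medians of 0.49 to 0.75 for KO against WT and -0.62 to -0.37 for the difference. Where not stated, the cause was not tested.

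Signs turned only in members whose change was not called. With the mean of probe sets, RA in wild type gave 0.16 for Lyve1 and 0.0115 for Clec4g, and KO_RA against WT_RA gave -0.0268 for Eng. With array weights the values were 0.21 (Lyve1) and 0.15 (Clec4g) for RA in wild type, 0.14 for Lyve1 in KO against WT and -0.0054 for Kdr in KO_RA against WT_RA. Quantile normalization gave 0.0147 for the Lyve1 difference. Without both arrays that stood apart, KO_RA against KO gave -0.0725 for Kdr, and KO_RA against WT_RA gave -0.0248 (Pecam1), 0.11 (Cdh5) and -0.052 (Kdr). Without 1 array, RA in wild type spanned -0.16 to 0.0838 (Lyve1) and -0.14 to 0.21 (Clec4g), KO against WT -0.23 to 0.0157 (Lyve1), the difference -0.16 to 0.0928 (Lyve1), KO_RA against WT_RA -0.052 to 0.0735 (Kdr), -0.0554 to 0.16 (Pecam1) and -0.26 to 0.11 (Cdh5), and KO_RA against KO -0.0725 to 0.23 (Kdr) and -0.26 to 0.0156 (Pecam1).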
